A study of Mus musculus with 6 samples.

Results

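Genes of the unfolded protein response, of amino acid stress and of the heat shock response were followed in cultured Raw 264.7 cells, which are a mouse line of the monocyte and macrophage lineage, with and without the alarmin IL-33, a relative of IL-1. The set held 36 genes, chosen by name as members of these 3 stress programs, and 33 of them had a probe set that the platform annotation assigns to 1 gene symbol, among 22180 such genes on the array. The branches were the chaperones of the endoplasmic reticulum (ER) with the targets of IRE1 and ATF6 (13 of 14 measured), ATF4 with its targets (10 of 10) and the heat shock proteins (10 of 12). Pdia4, Hsp90ab1 and Dnaja1 were not analysed here, Dnaja1 because its probe set carries a second symbol. Cells were grown with 10% serum, starved, and then kept in 2% serum, either with IL-33 at 50 ng/ml (3 arrays) or with PBS in its place (3 arrays). All 6 samples therefore went through starvation and low serum. How long IL-33 acted is not stated in the labels.

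When unfolded proteins build up in the ER, the sensors IRE1, PERK and ATF6 signal to the nucleus. IRE1 splices the mRNA of the transcription factor XBP1, and XBP1 and cleaved ATF6 raise chaperones, folding enzymes and the machinery that returns misfolded proteins to the cytosol. PERK and the amino acid sensor GCN2 phosphorylate the initiation factor eIF2, which favours translation of ATF4, and ATF4 raises genes of amino acid synthesis, transport and tRNA charging as well as the death-associated factor CHOP (Ddit3). The heat shock response is separate: the factor HSF1 raises chaperones of the cytosol and of mitochondria. Macrophages are secretory cells, and inflammatory stimuli are known to engage parts of all 3 programs.

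The short DNA elements that these factors are known for are shown here for 5 members. Dnajb9 is shown because it was the 1 member that passed the test below, and the others as examples of members that carry a textbook element. Whether an element bears on any difference was not tested. The sequences are RefSeq windows of build GRCm38.p6, written 5′ to 3′ on the strand of the gene. They end at the base before the annotated start of transcription, except that of Chac1, which is the stretch of 120 bases that begins at position -250 from it. Capitals mark CCAAT and the ACGTG core (read on both strands, so the palindrome CACGTG) in Dnajb9, at chr12:44210069-44210318 on the minus strand. In Hspa5, at chr2:34771970-34772089 on the plus strand, they mark the ER stress element I, which is CCAAT and CCACG with 9 bases between them. In Herpud1, at chr8:94386309-94386428 on the plus strand, they mark the ER stress element II, which is ATTGG and CCACG with 1 base between them, and the C/EBP-ATF element bound by ATF4. In Chac1, at chr2:119350992-119351111 on the plus strand, they mark the C/EBP-ATF element alone. In Hspe1, at chr1:55088028-55088147 on the plus strand, they mark a pair of overlapping heat shock elements.
Dnajb9: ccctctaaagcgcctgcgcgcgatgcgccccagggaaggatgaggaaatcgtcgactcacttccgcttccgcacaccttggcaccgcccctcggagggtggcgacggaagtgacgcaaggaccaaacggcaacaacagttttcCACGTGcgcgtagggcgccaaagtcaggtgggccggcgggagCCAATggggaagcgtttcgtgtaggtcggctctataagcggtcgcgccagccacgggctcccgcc
Hspa5: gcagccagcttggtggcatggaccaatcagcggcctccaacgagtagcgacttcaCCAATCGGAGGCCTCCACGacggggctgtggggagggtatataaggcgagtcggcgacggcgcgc
Herpud1: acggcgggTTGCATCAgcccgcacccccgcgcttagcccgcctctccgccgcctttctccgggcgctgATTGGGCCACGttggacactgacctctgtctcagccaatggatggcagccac
Chac1: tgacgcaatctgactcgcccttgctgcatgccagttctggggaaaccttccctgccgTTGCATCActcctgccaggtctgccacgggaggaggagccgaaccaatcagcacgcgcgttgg
Hspe1: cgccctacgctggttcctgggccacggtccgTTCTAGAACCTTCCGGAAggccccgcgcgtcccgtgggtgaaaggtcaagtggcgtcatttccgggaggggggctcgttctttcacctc

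Windows of 300 bases, 250 before the start and 50 after it, were held for 32 of the 36 listed genes, and every motif was sought on both strands by exact letters. The ER stress element I lay in 6 of the 13 genes of the ER branch with a window, Hspa5, Hsp90b1, Calr, Pdia6, Creld2 and Dnajc3, and in 0.137% of all 27025 genes with a window. The element II lay in Herpud1 alone among the members, and in 0.0444% of all genes. The C/EBP-ATF element, sought as TTGCATCA or as TGATG and AAT with 1 base between them, lay in Chac1 and Herpud1 among the members and in 1.89% of all genes. The heat shock element, sought as GAA, TTC and GAA or TTC, GAA and TTC with 2 bases between units, lay in 4 of the 9 genes of the heat branch with a window, Hspd1, Hspe1, Hsph1 and Chordc1, and in 0.662% of all genes. Hspd1 and Hspe1 start on opposite strands of chromosome 1, and their windows hold the same overlapping elements, at chr1:55088059-55088071 and chr1:55088064-55088076. The Dnajb9 window held neither ER stress element in these letters, nor TGACGTGG, the core of the unfolded protein response element. That absence is not particular to Dnajb9. No member with a window held TGACGTGG, and the windows of Edem1, Pdia3 and Sdf2l1 also held neither ER stress element. A CCAAT stood 65 bases before the start of Dnajb9, and CCAAT is in 41.1% and ACGTG in 21.8% of all genes' windows. Matches and their absence describe the letters only.

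Each array gave log2 expression values made with RMA, a method that makes the distributions of the arrays alike, and a difference is the mean of the arrays labelled IL-33 minus the mean of those labelled PBS. Array medians lay between 5.31 and 5.36 and array maxima between 13.62 and 13.66 (log2), and arrays correlated at r of 0.9972 or more within groups and 0.9967 or more between groups. The first principal component carried 50.9% of the variance among genes no dimmer than the median, and the 2 groups lay apart on it. IL-33 replicate 1 lay furthest out on the second component, which carried 16.7%. All 10 macrophage markers were at or above the median level of all genes, from Spi1 at 9.56 to Lyz2 at 12.88, and their mean lay between 11.70 and 11.74 on the 6 arrays. Of 39 markers of fibroblasts, lymphocytes, mast cells and basophils, and endothelium and epithelium, 4 reached that level, none passed the test, and the 4 list means lay between 3.97 and 5.33 on the 6 arrays. No macrophage marker passed either. The groups did not overlap in 6 of those 10, 2 higher and 4 lower, against 20.3% of all genes and 29.9% of those at or above the median level. Adgre1 differed most, by -0.29 (log2; adjusted p of 0.114, limma). The direction rests on the sample titles, source names and stated agent, which give the same groups. The array names in the descriptions read the other way: they carry IL on arrays labelled PBS and P on arrays labelled IL-33. If the labels were exchanged, every sign below would turn.

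Of the 33 stress genes, 1 passed the test in the main fit, and it passed in only 7 of 15 alternative fits. Dnajb9, an ER co-chaperone of BiP and a target of XBP1, was lower with IL-33 by 1.29-fold, and the other 32 did not pass an adjusted p under 0.05 (limma, Benjamini-Hochberg over all genes). Over the whole array 0.591% of genes passed in either direction and 0.316% passed as lower, so 1 of 33 is a small count beside a small background. The members' differences were small: 27 of 33, or 81.8%, differed by less than 0.1 (log2), against 63.3% of all genes. Their median difference was -0.0048 and the median over all genes was -0.0051. For 28 of the 33 members the 95% interval lay within a 1.2-fold change in either direction, and for all 33 within a 1.5-fold change. Of all 22180 genes, 11124 lay within 1.2-fold and 21443 within 1.5-fold. Of the 11090 genes at or above the median level, 7078 and 10823 did, so lying within 1.5-fold is not particular to the members. The median spread between arrays of a group was 0.037 for the members (pooled SD, log2), 0.065 for genes at or above the median level and 0.093 for all genes, and 32 of the 33 members were at or above the median level. Each array read the RNA of many cells together, so expression in fewer cells and less RNA per cell cannot be told apart.

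**Figure D1:**
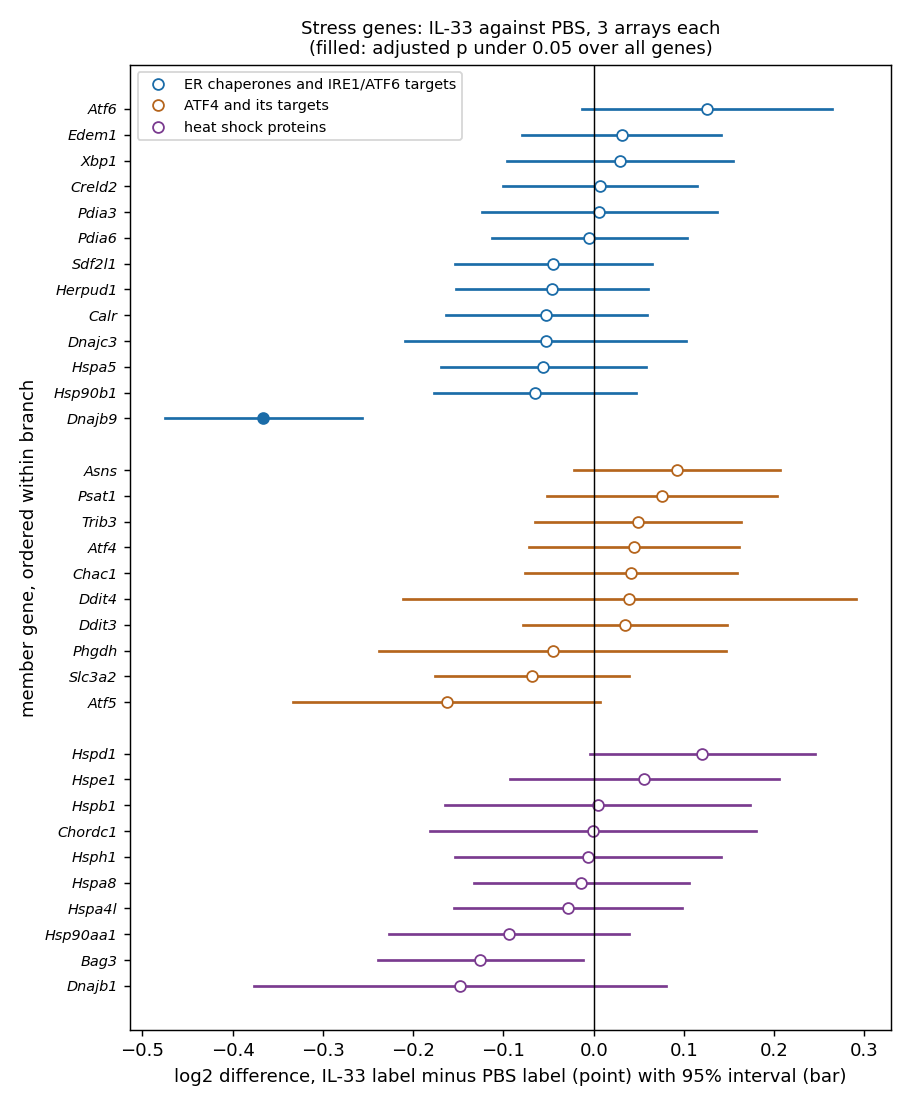
Each point is the log2 difference of a member, IL-33 label minus PBS label, and each bar its 95% interval from the fit over all genes, with 3 arrays in each group. Dnajb9 at -0.37 is the 1 filled point, and the other members lie between -0.16 and 0.13.

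Dnajb9 had log2 values of 11.11, 11.08 and 11.11 on the arrays labelled PBS. It had 10.72, 10.75 and 10.73 on those labelled IL-33. The groups are far apart for their spread, with 11.10 ± 0.02 against 10.73 ± 0.02 (SD, n = 3 each). The difference was -0.37 ± 0.05 (log2, SE), with an interval from -0.47 to -0.26 and an adjusted p of 0.0288 (limma). That interval met none of the intervals of the other 12 measured genes of the ER branch, whose lowest bound was -0.21. The size of the difference held when any array was left out, from -0.36 to -0.38, but the call did not: with 5 arrays the adjusted p lay between 0.0779 and 0.153 (limma). With the replicate number as a block it was 0.139, and with all 41345 probe sets adjusted together 0.140 (limma).

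The chaperones and folding enzymes that share Dnajb9's branch stayed within a narrow band. Hspa5 encodes BiP, the main chaperone of the ER and the usual readout of the unfolded protein response. Its values were 12.13, 12.20 and 12.16 with PBS and 12.10, 12.09 and 12.12 with IL-33. All 3 IL-33 values lay below all 3 PBS values, yet the difference was only -0.06 ± 0.05 (log2, SE), with an adjusted p of 0.694 (limma), and its interval ran from -0.17 to 0.06, that is, from a level 1.12-fold lower to one 1.04-fold higher.

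Hsp90b1 encodes GRP94, the HSP90 of the ER. It read 12.45, 12.46 and 12.44 with PBS and 12.35, 12.42 and 12.38 with IL-33, a difference of -0.07 and again without overlap. Calr, the lectin chaperone calreticulin, read 12.67, 12.64 and 12.67 with PBS and 12.58, 12.63 and 12.62 with IL-33, a difference of -0.05. The adjusted p was 0.630 for Hsp90b1 and 0.705 for Calr (limma).

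The other folding and degradation genes of the branch did not pass either. Herpud1, a membrane protein of ER-associated degradation, differed by -0.05, with arrays between 11.74 and 11.75 for PBS and between 11.69 and 11.70 for IL-33. Sdf2l1, a component of the ER chaperone complex, differed by -0.04 and also without overlap. Dnajc3, the co-chaperone p58IPK, differed by -0.05 with overlapping groups. The disulfide isomerases Pdia3 and Pdia6 differed by 0.01 and -0.0048, Creld2, a secreted ER stress protein, by 0.01, and Edem1, which sends misfolded glycoproteins to degradation, by 0.03. The second probe set of Edem1 read higher by 0.19. Their adjusted p ran from 0.726 to 0.981 (limma) over these 7 genes.

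The transcription factors of this branch did not pass either. Atf6 encodes the sensor that is cleaved in the Golgi to become a factor. It read 10.96, 10.91 and 10.96 with PBS and 10.99, 11.06 and 11.16 with IL-33, the only ER member to read higher on every IL-33 array. The difference was 0.13 ± 0.06 (log2, SE) with an adjusted p of 0.421 (limma). Xbp1 read 11.60, 11.57 and 11.68 with PBS and 11.67, 11.61 and 11.65 with IL-33, with overlap and a difference of 0.03 (adjusted p of 0.865, limma). A value per gene does not separate spliced from unspliced Xbp1, nor does it measure cleaved ATF6.

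Across the ER branch, 8 of 13 members were below 0 and the median difference was -0.045. The groups did not overlap in 7 of the 13, of which 6 were lower and 1 higher. Among all 33 members the groups did not overlap in 13, or 39.4%, with 10 lower and 3 higher. For all genes that share was 20.3% (10.1% lower and 10.3% higher), and for genes at or above the median level it was 29.9%. The median of the ER branch moved with single arrays, to -0.028 when PBS replicate 1 was left out and to -0.00577 when IL-33 replicate 2 was.

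**Figure D2:**
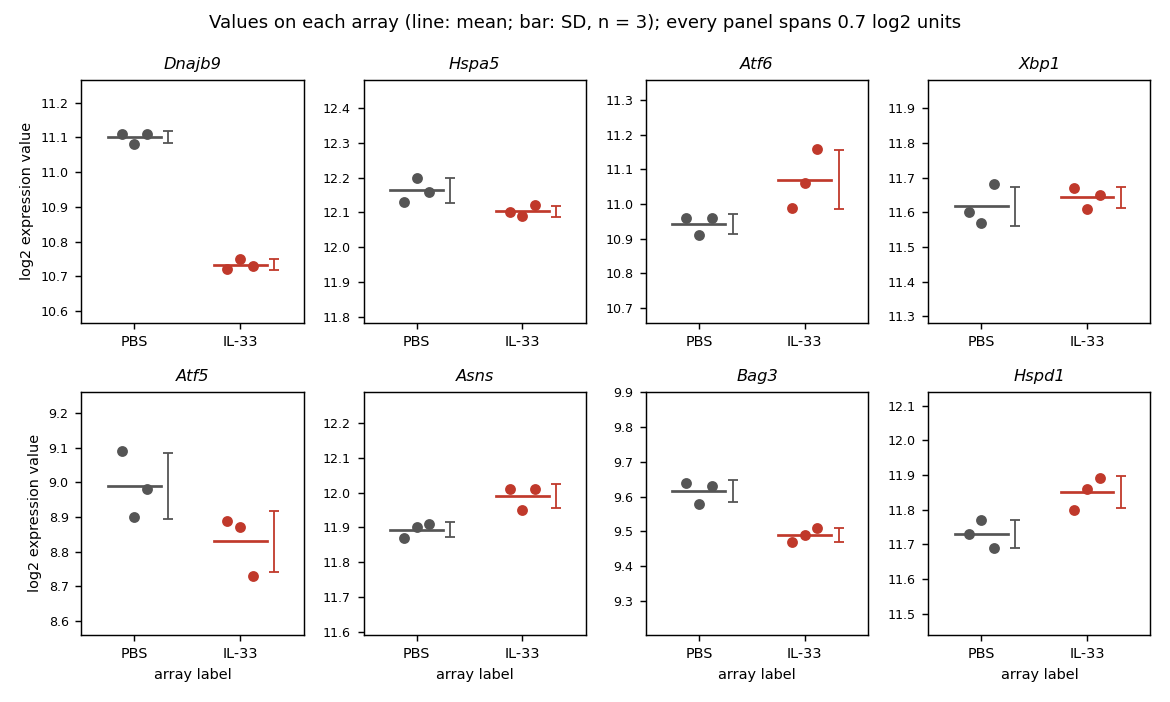
Log2 values of 8 members on each of the 6 arrays, with the group mean as a line and the SD as a bar (n = 3), every panel on a span of the same height. Dnajb9 has the largest difference of the 8, -0.37; the groups of Hspa5, Atf6, Atf5, Asns, Bag3 and Hspd1 do not overlap but lie close, and those of Xbp1 overlap.

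In the ATF4 branch none of 10 members passed. Atf4 itself read 9.92, 9.90 and 9.93 with PBS and 9.93, 9.95 and 10.01 with IL-33, a difference of 0.04 ± 0.05 (log2, SE). Ddit3, which encodes CHOP, read 11.17, 11.12 and 11.10 with PBS and 11.17, 11.15 and 11.16 with IL-33, a difference of 0.03 ± 0.05 (log2, SE). Both overlapped between groups, with adjusted p of 0.760 and 0.818 (limma), and the upper bounds of their intervals correspond to rises of 1.12-fold and 1.11-fold. ATF4 is controlled mainly through translation, which arrays do not measure.

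The effectors of ATF4 did differ in sign among themselves. Asns, asparagine synthetase, read 11.87, 11.90 and 11.91 with PBS and 12.01, 11.95 and 12.01 with IL-33. Its groups did not overlap, and the difference was 0.09 ± 0.05 (log2, SE; adjusted p of 0.475, limma). Psat1, an aminotransferase of serine synthesis, read 10.97, 10.90 and 10.98 with PBS and 10.97, 11.03 and 11.07 with IL-33, a difference of 0.08 with overlap. Trib3, a pseudokinase that feeds back on ATF4, read 9.32, 9.25 and 9.25 with PBS and 9.31, 9.33 and 9.34 with IL-33, a difference of 0.05 with overlap.

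Atf5 and Slc3a2 read lower on every IL-33 array. Atf5, a factor related to ATF4, read 9.09, 8.90 and 8.98 with PBS and 8.89, 8.87 and 8.73 with IL-33. The difference of -0.16 ± 0.07 (log2, SE) was the largest of the branch, with an adjusted p of 0.396 (limma). Slc3a2, the heavy chain that amino acid exchangers share, read 12.89, 12.88 and 12.89 with PBS and 12.81, 12.80 and 12.83 with IL-33, a difference of -0.07. The gap is small but the arrays of each group lie very close, and the adjusted p was 0.587 (limma).

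The last 3 ATF4 members overlapped between groups. Chac1, a glutathione-degrading enzyme, differed by 0.04. Phgdh, the first enzyme of serine synthesis, differed by -0.05, and Ddit4, an inhibitor of mTORC1, by 0.04 with the widest spread of all members, 0.19 among PBS arrays (SD, n = 3). Over the branch 7 of 10 members were above 0, with a median of 0.040.

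No heat shock gene passed. The co-chaperone gene Bag3, a classic HSF1 target, read 9.64, 9.58 and 9.63 with PBS and 9.47, 9.49 and 9.51 with IL-33. The groups did not overlap, and the difference was -0.13 ± 0.05 (log2, SE). Its unadjusted p of 0.0345 (limma) made it, with Dnajb9, 1 of only 2 members under 0.05, a level that 13.2% of all genes reached, and its adjusted p was 0.332 (limma).

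The genes of the mitochondrial chaperones had differences of the opposite sign. Hspd1, which encodes HSP60 and sits in the heat shock branch although its product works in mitochondria, read 11.73, 11.77 and 11.69 with PBS and 11.80, 11.86 and 11.89 with IL-33. The groups did not overlap, and the difference was 0.12 ± 0.05 (log2, SE; adjusted p of 0.392, limma). Hspe1 encodes its partner HSP10 and shares its promoter region, as printed above. It read 7.29, 7.28 and 7.14 with PBS and 7.24, 7.35 and 7.29 with IL-33, a difference of 0.06 with overlap and an adjusted p of 0.766 (limma).

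The genes of the cytosolic HSP90 and HSP70 machinery differed by little beside their spread. Hsp90aa1, the inducible HSP90, read 9.10, 9.12 and 9.24 with PBS and 9.06, 9.04 and 9.08 with IL-33, a difference of -0.09 (adjusted p of 0.539, limma), and the groups narrowly did not overlap. Dnajb1, which encodes an HSP40 co-chaperone of HSP70, read 8.32, 8.52 and 8.18 with PBS and 8.15, 8.12 and 8.31 with IL-33. The difference of -0.15 came with a wide spread and overlapping groups (adjusted p of 0.580, limma).

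Hspa8, the constitutive HSC70, read 12.67, 12.69 and 12.71 with PBS and 12.62, 12.72 and 12.68 with IL-33, a difference of -0.01 (adjusted p of 0.939, limma). Its 3 further probe sets each read lower by 0.10, but 2 of them gave the same rounded values on every array and are hardly separate readings. Which of the 4 reads Hspa8 alone was not tested. Hsph1, an HSP110 exchange factor, Chordc1, an HSP90 co-chaperone, Hspa4l, an HSP110 relative, and the small heat shock protein gene Hspb1 differed by -0.03 to 0.00, all with overlapping groups. Hspb1 was the 1 member below the median level of all genes, at 5.07 in both groups. Over the branch 3 of 10 members were above 0, and the median difference was -0.010. With 1 array left out it was -0.0273 (PBS replicate 1), -0.0343 (PBS replicate 3) or -0.0389 (IL-33 replicate 3), and leaving out IL-33 replicate 2 turned it to 0.0128.

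Further genes of the same programs were listed by function, with earlier results of these data known. They gave no calls either, and none of 121 measured genes passed over all genes. The ER list of 40 had a median difference of -0.010, with 15 above 0, and leaving out 1 array moved that median to between -0.0313 (IL-33 replicate 3) and -0.00266 (IL-33 replicate 2). The largest difference was that of Wfs1, the ER membrane protein wolframin, which read 9.21, 9.23 and 9.09 with PBS and 8.81, 8.76 and 8.56 with IL-33, a difference of -0.47 ± 0.08 (log2, SE; adjusted p of 0.0675, limma). The proline isomerase Fkbp2 differed by -0.19 and the disulfide isomerase P4hb by -0.16 (adjusted p of 0.192 and 0.273, limma). The sensor genes Ern1, which encodes IRE1, and Eif2ak3, which encodes PERK, differed by -0.17 and -0.15, each without overlap (adjusted p of 0.381 and 0.352, limma).

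In the wider ATF4 list more genes read higher than lower. Of 39 measured genes 27 were above 0, against 47.9% of all genes, with a median difference of 0.082. The groups did not overlap with IL-33 higher in 20 and lower in 4, or in 24 of 39, where the share in either direction was 20.3% of all genes and 29.9% of those at or above the median level. In the wider ER list they did not overlap in 8 higher and 11 lower genes of 40, and in the wider heat shock list in 12 higher and 1 lower of 42. Aldh1l2, a mitochondrial folate enzyme, read 10.03, 10.14 and 10.09 with PBS and 10.29, 10.36 and 10.39 with IL-33, a difference of 0.26 ± 0.06 (log2, SE; adjusted p of 0.114, limma). Aldh18a1, which makes the precursor of proline, differed by 0.23 (adjusted p of 0.130, limma). Slc7a11, the cystine transporter that pairs with Slc3a2, read lower, at 12.34, 12.33 and 12.32 with PBS and 12.11, 12.11 and 12.15 with IL-33, a difference of -0.21 ± 0.05 (log2, SE; adjusted p of 0.118, limma). The amino acid sensor gene Eif2ak4, which encodes GCN2, differed by 0.06 (adjusted p of 0.721, limma).

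The wider heat shock list of 42 had a median difference of 0.047, with 31 above 0. Its 3 smallest p-values belonged to Cct4 and Cct8, subunits of the cytosolic chaperonin CCT, at 0.18 and 0.14, and to Ahsa1, an activator of HSP90, at 0.13 (adjusted p of 0.227 to 0.316, limma). Hsf1 itself was not analysed here.

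**Figure D3:**
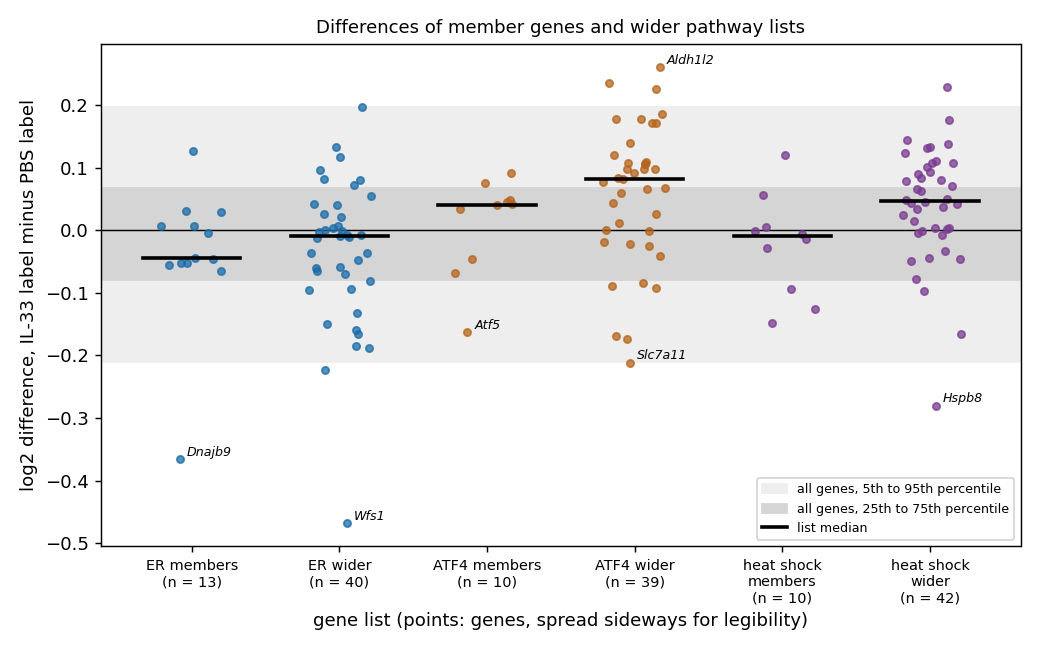
Each point is the log2 difference of a gene, IL-33 label minus PBS label, for the members and the wider list of each branch; black lines are list medians and grey bands hold the central part of all genes, from -0.21 to 0.20 (5th to 95th percentile) and from -0.08 to 0.07 (25th to 75th). Dnajb9 and Wfs1 lie lowest, and the wider ATF4 list has the highest median, 0.082.

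The count for the wider ATF4 list depended on how the variance of a gene was estimated. With a prior variance that follows the expression level and is robust to outliers, 4.51% of all genes passed, 2.39% as higher and 2.12% as lower (limma). Under it 8 of the 39 wider ATF4 genes were higher and 2 lower, 3 of the 40 wider ER genes were lower, and 1 of the 42 wider heat shock genes was higher. Among the 33 members Dnajb9 was again the only call, with an adjusted p of 3.98e-05 (limma), and the next smallest among the others was 0.0604.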

How the data were processed

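RNA of 6 samples of Raw 264.7 cells was measured on whole-transcript arrays. The authors deposited log2 expression values, 1 per probe set and array, made with RMA per the submitters' processing notes; neither a version nor settings are named there. The table holds no detection calls. Of 41345 probe sets, 23521 carried exactly 1 gene symbol in the platform annotation; where several probe sets named 1 gene, the one brightest on average over 6 arrays stood for it, which left 22180 genes. The values were fitted with limma 3.58.1 in R 4.3.3 (lmFit, eBayes, a group coefficient, no filter), with Benjamini-Hochberg adjustment over all genes at 0.05, and the fit was tested on simulated data. The labels do not say whether samples of a group were separate cultures, so the p-values cover only spread seen between arrays, possibly technical. Through eBayes that spread is partly the gene's own and partly a value shared by all genes. The median pooled SD was 0.093 over all genes and 0.037 for the members (log2). SEs and p-values of members with little spread of their own thus rest largely on other genes. Herpud1, for example, had group SDs of 0.006 and 0.008 and an SE of 0.045 (log2).

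Members, lists and tests were chosen with earlier results of these data known. Values on every array are given for members that passed, the 5 with the smallest p in each branch, and Atf4, Atf6, Xbp1, Ddit3, Hspa5, Hspa8 and Hsp90aa1. Of each wider list, the 3 smallest p are named, with Ern1, Eif2ak3 and Eif2ak4. Alternatives were 2 filters on dim genes, array weights, a replicate block, another prior variance, quantile normalization once more, the 75th percentile as centre, averaged probe sets, adjustment over every probe set, and the removal of each array in turn. Promoter windows are RefSeq's, build GRCm38.p6. Figures used matplotlib 3.10.9 in Python 3.11.15.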

Additional observations from a re-analysis of the deposited data

How the results depend on the processing

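Dnajb9 kept its direction in all 15 alternatives and passed in 7. No other member passed in any of them, with a smallest adjusted p of 0.0604 (limma). The sign changed in at least 1 alternative for 10 members, all with a difference of 0.046 or less in size. The number of members called lower, in all and in the ER branch, was 0 with the replicate block, with all probe sets tested and without any 1 of the 6 arrays. Nothing in the labels says that a replicate number marks a shared culture or day, so the numbers were not taken as pairs. Same-numbered arrays of the groups deviated with r of 0.082, 0.088 and 0.022, and other pairs with r from -0.125 to 0.059. So few arrays cannot decide whether the numbers mark pairs. With the block 5 genes of the whole array were higher and 16 lower, against 61 and 70. Genes called higher and lower numbered 401 and 359 at or above the median mean, 152 and 144 at or above the 25th percentile, 530 and 470 with the trended and robust prior variance, and 4 and 10 with all probe sets tested; 106 were lower with array weights. That test of all probe sets kept controls, which no column marks. Without 1 array, 4 to 28 genes were higher and 10 to 55 lower. The median over all members ran from -0.0211 to 0.0106 without 1 array, and that of the ER branch from -0.0473 to -0.00577; it was -0.0365 after a further quantile normalization. In the wider lists, genes at or above the median mean gave 2 lower ER genes and 4 higher and 1 lower ATF4 genes, those at or above the 25th percentile 1 lower ER gene, and the trended and robust prior variance 3 lower ER genes, 8 higher and 2 lower ATF4 genes and 1 higher heat shock gene. The cause of these changes was not tested beyond what fewer genes or arrays imply. The number of arrays limits the precision.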

Other observations

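Groups of related genes, from the wider lists and, for serine synthesis, also the members Psat1 and Phgdh, were looked at after their values were seen, so they carry no test. The wider ATF4 list holds some of the aminoacyl-tRNA synthetases, the enzymes that charge tRNAs with amino acids, and the others were not looked at. All 11 synthetases measured from that list read higher with IL-33, from Iars at 0.01 to Tars at 0.14. Their median log2 difference was 0.082. In 8 of them the groups did not overlap, where 20.3% of all genes and 29.9% of those at or above the median level did not in either direction, and none passed over all genes, with adjusted p between 0.347 and 0.958 (limma). At least 10 of the 11 were above 0 in each of 15 alternatives. All 8 subunits of the chaperonin CCT, which folds actin and tubulin, read higher as well, from Tcp1 at 0.04 to Cct4 at 0.18, with a median of 0.086. In 6 of these the groups did not overlap, beside the same shares of 20.3% and 29.9%, and none passed, with adjusted p between 0.227 and 0.761 (limma). The count fell to 7 only when all probe sets of a gene were averaged, since a second probe set of Tcp1 read lower by 0.24.

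Of 7 enzymes of serine, proline and one-carbon metabolism, 6 read higher, and Phgdh was the exception. The amino acid transporters were split: Slc1a5 and Slc7a5 read higher by 0.18 each without overlap, Slc7a11 and Slc38a2 lower without overlap, and Slc7a1 and Slc7a3 overlapped. The 10 genes of the wider ATF4 list that passed under the level-dependent, robust prior variance were Aldh1l2, Aldh18a1, Cth, Slc1a5, Slc7a5, Gpt2, Rars and Eif2ak2, all higher, and Slc7a11 and Atf3, both lower, with adjusted p between 0.000421 and 0.0333 (limma). Eif2ak2, the RNA-activated kinase PKR, is also an interferon-induced gene. Slc7a11 is also a target of the oxidative stress factor NRF2.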
